A study of Homo sapiens with 2 samples.

Results

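The genes that copy DNA were followed in naive cells of H9, a widely used line of human embryonic stem cells, as a set of 42 genes of the 36601 in the count matrices. The members were chosen by gene symbol, and all 42 were found in both matrices. By role they are 16 origin and helicase genes, 15 replication fork genes, 5 nucleotide supply genes, 3 chromatin genes and 3 repair and checkpoint genes. The series, whose title concerns LINE1 transposable elements and the embryonic 8C state, holds 1 library of cells transfected with an oligonucleotide named ASO-L1 and 1 of cells transfected with one named SO-L1; the labels do not spell these names out. Both oligonucleotides carried a 6-FAM dye and were used at 25 nM on cells kept in RSeT, a medium for naive cells. Both libraries then had 10 nM DZNep and 5 nM TSA in the medium until collection at 48 h, so that neither group lacks those compounds, and both had trans-ISRIB (0.7 µM), emricasan (5 µM) and Y-27632 (10 µM) for the first 24 h. From each transfection 100000 dye-positive cells were sorted and made into a 10x Genomics 3′ library with a target of 12000 cells, so the cells described are those that took up dye. With 1 library per oligonucleotide there is no replicate check, no test between the oligonucleotides is possible, and every interval below covers counting error only.

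Before a cell copies its genome, the origin recognition complex, CDC6 and CDT1 load rings of the MCM helicase on origins, and CDC45 and the GINS complex then turn those rings into moving helicases. At the fork, primase with DNA polymerase alpha starts each strand, the clamp loader RFC places the sliding clamp PCNA, polymerases delta and epsilon extend, and FEN1 and LIG1 join the lagging strand fragments. Many of these genes are targets of the E2F transcription factors and are transcribed most around the start of S phase, and pluripotent cells are known for a short first gap phase with a high share of cells in S phase.

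The promoters are shown first because E2F sites are the known common feature of these genes. Windows from 250 bases before to 50 bases after the transcription start were taken from RefSeq (GRCh38.p14), and 37 of the 42 members had one; POLD3, GINS4, RPA2, MCM4 and MCM5 had no entry. For the 8 members with more than 1 entry, the first window was counted unless said otherwise. The search for E2F sites covered 4 words, which are TTCCCGC, its variant TTCGCGC, then TTGCCGC and also TTGGCGC, on both strands, and words on opposite strands can overlap. At least 1 word was found in 28 of the 37 windows (75.7%), against 17.1% of 15843 protein-coding genes, and 11 members held 2 or more. The windows with a word were 10 of 13 for origin genes, 11 of 13 for fork genes, 2 of 5 for nucleotide supply genes, 2 of 3 for chromatin genes and 3 of 3 for repair genes. Counting any window of a gene, 31 of the 37 members (83.8%) held a word, against 20.5% of protein-coding genes, with RRM2, TK1 and DUT added, so that all 5 nucleotide supply genes had one. CCAAT, the word bound by the factor NF-Y, was in 56.8% of the members' windows and 36.4% of those of protein-coding genes. TTTGAA, part of the CHR element known from genes of late cell cycle phases, was in 5.41% and 12.1%. These matches describe letters, not bound sites. The windows printed here are those of 2 origin genes with overlapping words and of 3 of the 4 members that differed most between the libraries. Each runs 5′ to 3′ on the gene's own strand, with E2F words in capitals: MCM6 (chr2:135876394-135876693, minus strand) and ORC1 (chr1:52404374-52404673, minus strand) hold overlapping pairs, 4 and 2 words in all, GINS2 (chr16:85688905-85689204, minus strand) and BRIP1 (chr17:61863479-61863778, minus strand) hold 1 word each, and ORC6 (chr16:46689409-46689708, plus strand) holds none. The window of GINS3, the fourth such member, holds 1 word.
MCM6: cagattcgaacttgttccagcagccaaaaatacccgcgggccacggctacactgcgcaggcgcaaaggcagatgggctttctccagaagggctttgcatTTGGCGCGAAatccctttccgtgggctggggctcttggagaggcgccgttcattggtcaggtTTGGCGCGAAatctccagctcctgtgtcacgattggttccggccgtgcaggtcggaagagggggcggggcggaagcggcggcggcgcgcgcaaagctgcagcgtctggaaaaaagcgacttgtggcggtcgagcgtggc
ORC1: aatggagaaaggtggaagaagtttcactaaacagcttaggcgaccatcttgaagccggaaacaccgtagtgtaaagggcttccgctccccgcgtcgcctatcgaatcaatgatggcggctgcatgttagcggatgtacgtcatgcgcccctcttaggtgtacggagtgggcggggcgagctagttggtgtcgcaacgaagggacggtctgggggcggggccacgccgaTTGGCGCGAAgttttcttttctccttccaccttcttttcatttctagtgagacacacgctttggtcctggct
GINS2: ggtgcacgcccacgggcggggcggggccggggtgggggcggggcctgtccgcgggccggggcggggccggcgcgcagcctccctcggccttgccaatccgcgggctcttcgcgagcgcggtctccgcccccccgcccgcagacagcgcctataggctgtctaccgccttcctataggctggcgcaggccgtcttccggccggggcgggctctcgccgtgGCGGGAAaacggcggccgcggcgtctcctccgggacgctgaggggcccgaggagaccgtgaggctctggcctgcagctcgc
BRIP1: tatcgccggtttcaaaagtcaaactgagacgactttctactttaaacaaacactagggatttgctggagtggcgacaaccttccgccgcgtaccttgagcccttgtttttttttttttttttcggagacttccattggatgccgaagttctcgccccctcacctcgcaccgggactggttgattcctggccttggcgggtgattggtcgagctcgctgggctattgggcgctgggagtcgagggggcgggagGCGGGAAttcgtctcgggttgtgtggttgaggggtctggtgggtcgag
ORC6: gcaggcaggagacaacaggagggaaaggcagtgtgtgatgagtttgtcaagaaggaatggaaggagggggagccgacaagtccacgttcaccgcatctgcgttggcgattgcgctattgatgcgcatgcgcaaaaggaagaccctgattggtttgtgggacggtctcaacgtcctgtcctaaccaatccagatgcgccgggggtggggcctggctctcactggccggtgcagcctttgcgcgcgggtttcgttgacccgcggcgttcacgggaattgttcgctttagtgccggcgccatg

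After leaving out barcodes with fewer than 1000 genes or with 20% or more of their unique molecular identifiers (UMIs, each a counted molecule) from mitochondrially encoded MT- genes, 9084 ASO-L1 cells and 6553 SO-L1 cells remained, with medians of 53960 and 42314 UMIs. The MT- share falls into a low class, under 2% (2531 ASO-L1 and 1857 SO-L1 cells), and a high class of 2% or more (6553 and 4696 cells). The pluripotency markers were present in both classes of both libraries; POU5F1 was at 609 CPM (counts normalized to depth, defined below) in ASO-L1 and 956 CPM in SO-L1 low-MT cells. The barcode lists of the libraries overlapped: 6105 barcodes stood in both deposited lists, and 274 in both lists of kept cells. Among kept cells, 5308 of the ASO-L1 cells and 1062 of the SO-L1 cells had a barcode listed in the other library. Ratios of members and shares of cells with few member UMIs are given with these cells and in part without them. Correlations, orders of cells by mitosis genes or member sum, other pathway genes, gene length and state markers are given only with them.

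Levels are CPM, the UMIs of a gene in a group of cells for every 1000000 of their UMIs outside the MT- genes. Summed over the 42 members, the level was 2835 CPM in ASO-L1 cells and 2884 CPM in SO-L1 cells. In low-MT cells it was 2500 CPM in ASO-L1 and 2180 CPM in SO-L1, and in high-MT cells 2942 CPM in ASO-L1 and 3097 CPM in SO-L1. The set was therefore at a like level in the libraries as wholes, and in both libraries it was lower in low-MT cells than in high-MT cells. Single members differed much more than the sum. The UMIs of a member in a group of low-MT cells numbered between 1028 (BRIP1) and 17774 (MCM3) in ASO-L1 and between 582 (CHAF1B) and 7748 (POLA1) in SO-L1, which sets the width of the intervals below.

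**Figure D1:**
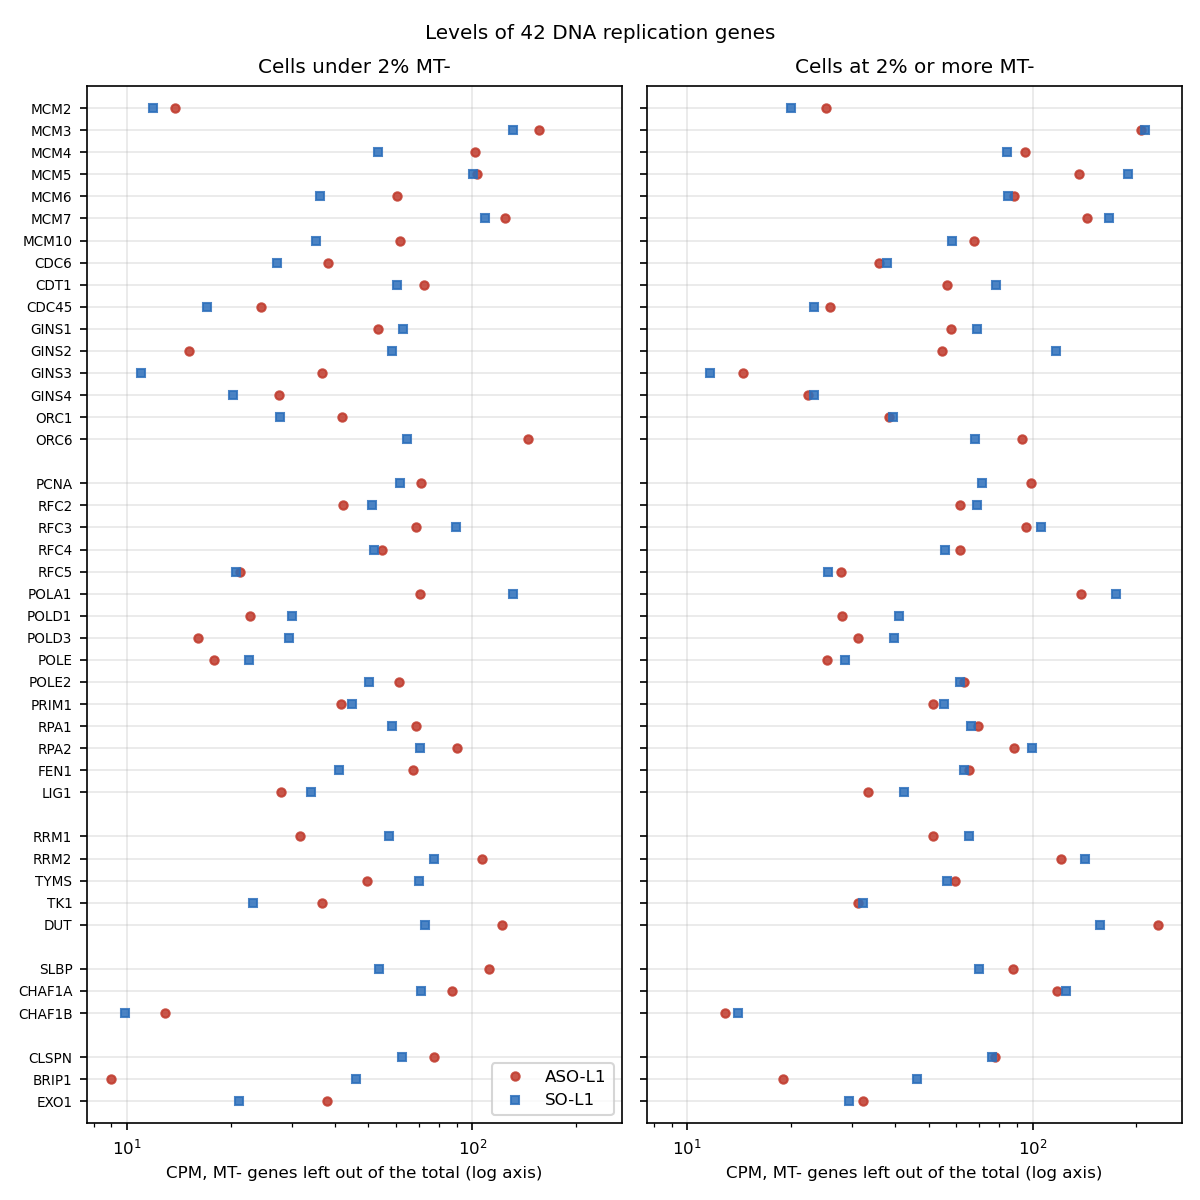
Level of each of the 42 members in CPM on a log axis, in cells under 2% MT- (left) and at 2% or more (right), with circles for ASO-L1 and squares for SO-L1 and genes grouped by role. In low-MT cells GINS2 and BRIP1 lie far to the left in ASO-L1 (15.1 and 8.995 CPM, against 58.6 and 46.0 CPM in SO-L1), while GINS3 and ORC6 lie to the right (36.7 and 145 CPM, against 10.97 and 64.7 CPM).

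The first comparison asks whether the replication genes differed between cells given ASO-L1 and cells given SO-L1. A member is counted as higher or lower when its CPM differed by at least 1.5-fold. Over all kept cells, 2 of 42 members were higher in ASO-L1, where 16.8% of the 24917 measured genes were, and 2 were lower, where 18.8% were. The median log2 ratio of the members was 0.02, beside −0.04 for all genes. In high-MT cells no member was higher (13.3% of genes) and 2 were lower (16.6%), with a median of −0.05 beside −0.06. In low-MT cells 11 members were higher (23.8% of genes) and 5 were lower (25.4%), with a median of 0.26 beside −0.01. The shares of members called were thus below the background in the libraries as wholes and near it for the members higher in low-MT cells, and the members are described below one by one for this reason.

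Among the origin and helicase genes, GINS2 and GINS3 differed in opposite directions, although their proteins are subunits of 1 complex. GINS2 was at 15.1 CPM in ASO-L1 and 58.6 CPM in SO-L1 low-MT cells (1728 and 3462 UMIs), and at 54.7 CPM in ASO-L1 and 117 CPM in SO-L1 high-MT cells. It was lower in ASO-L1 in both classes, with ASO-L1 over SO-L1 ratios of 0.258 (95% counting interval 0.243 to 0.273) in low-MT and 0.468 (0.459 to 0.477) in high-MT cells. The GINS2 gene overlaps GSE1 on the other strand, and the sources used here do not say whether counting used strand. GINS3 was at 36.7 CPM in ASO-L1 and 10.97 CPM in SO-L1 low-MT cells (4199 and 648 UMIs), and at 14.5 CPM in ASO-L1 and 11.7 CPM in SO-L1 high-MT cells. It was the member with the highest ratio in low-MT cells, 3.35 (3.08 to 3.64), and its ratio in high-MT cells was 1.24 (1.18 to 1.30). GINS3 overlaps AC009118.1 and AC009118.2 on the other strand, with the same limit. The other GINS subunits did not share either pattern: the low-MT ratio was 0.845 for GINS1 and 1.36 for GINS4. ORC6, the smallest subunit of the origin recognition complex, was at 145 CPM in ASO-L1 and 64.7 CPM in SO-L1 low-MT cells, a ratio of 2.24 (2.17 to 2.32), and at 93.2 and 68.2 CPM in high-MT cells, a ratio of 1.37 (1.34 to 1.39). ORC1, the subunit whose level is known to follow the cell cycle, was at 41.97 CPM in ASO-L1 and 27.8 CPM in SO-L1 low-MT cells and at 38.4 and 39.5 CPM in high-MT cells.

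The helicase subunits MCM2 to MCM7 form 1 ring in equal numbers, yet their low-MT ratios differed: 1.16 for MCM2, 1.19 for MCM3, 1.91 for MCM4, 1.03 for MCM5, 1.66 for MCM6 and 1.14 for MCM7. MCM4 was at 102 CPM in ASO-L1 and 53.4 CPM in SO-L1 low-MT cells, and at 95.2 and 84.3 CPM in high-MT cells. MCM6 was at 60.3 CPM in ASO-L1 and 36.3 CPM in SO-L1 low-MT cells, and at 88.6 and 84.8 CPM in high-MT cells. MCM3, the origin gene with the most UMIs, was at 156 CPM in ASO-L1 and 131 CPM in SO-L1 low-MT cells (17774 and 7734 UMIs) and at 206 and 212 CPM in high-MT cells. All 6 subunits were above 1 in low-MT cells, although the interval of MCM5 held 1 (0.994 to 1.06), and in high-MT cells MCM2 (1.26), MCM4 (1.13) and MCM6 (1.05) were above 1 and MCM3 (0.968), MCM5 (0.721) and MCM7 (0.862) below it. MCM10, which helps activate the helicase, had a low-MT ratio of 1.75 (1.66 to 1.84). The loading factors CDC6 and CDT1 had ratios of 1.41 and 1.20 in low-MT cells, and of 0.947 and 0.722 in high-MT cells. CDC45 had ratios of 1.43 and 1.11 in the same classes. In all, 6 of 16 origin genes were at least 1.5-fold higher in low-MT ASO-L1 cells (GINS3, ORC6, MCM4, MCM10, MCM6 and ORC1), where 23.8% of all genes were, and GINS2 was lower, where 25.4% were, and the median log2 ratio of the origin genes was 0.47 there and −0.04 in high-MT cells.

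**Figure D2:**
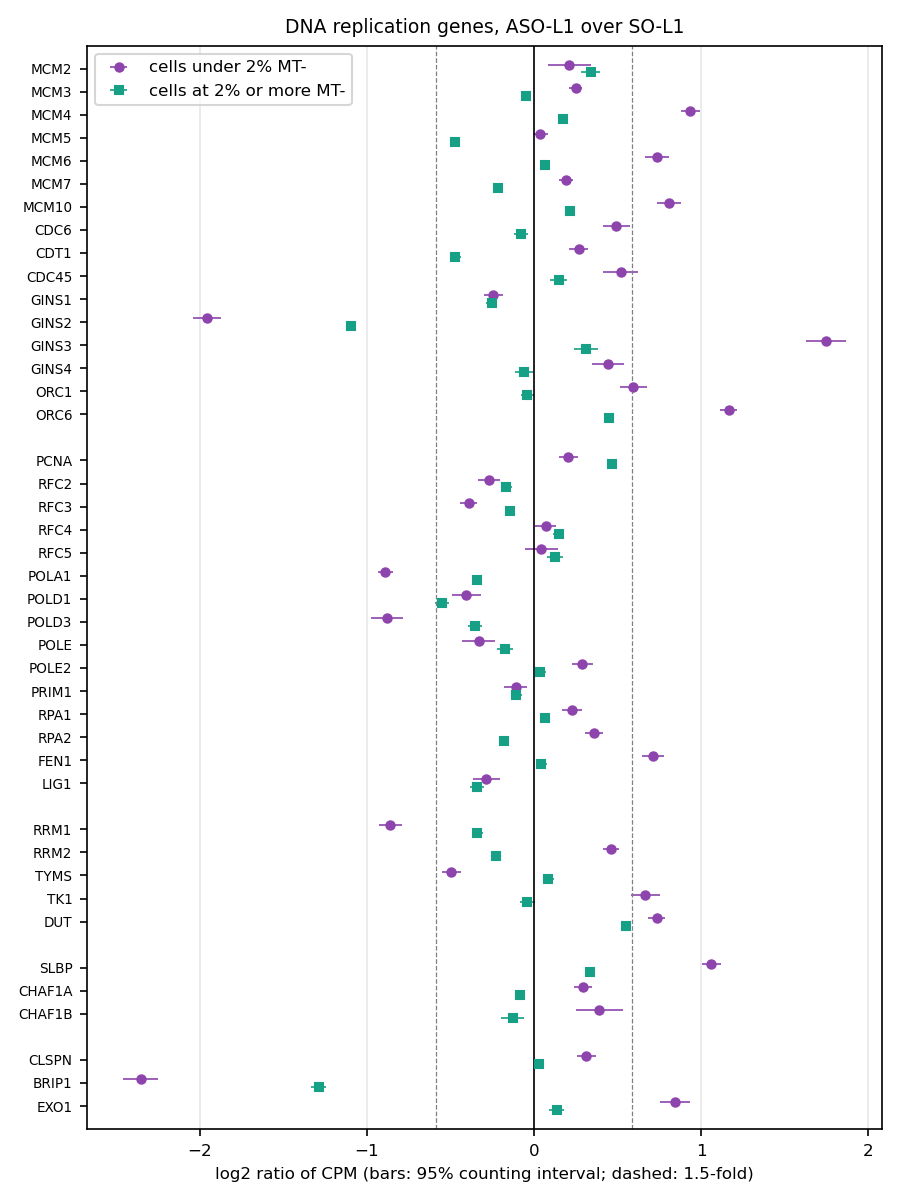
Log2 of the ASO-L1 over SO-L1 ratio of CPM for each member in cells under 2% MT- (circles) and at 2% or more (squares), with 95% counting intervals as bars and dashed lines at 1.5-fold. The low-MT points spread from −2.35 for BRIP1 to 1.74 for GINS3, and the high-MT points from −1.29 for BRIP1 to 0.55 for DUT.

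The fork genes had a median log2 ratio of −0.11 in low-MT cells and −0.14 in high-MT cells, and the large polymerase subunits were lower in ASO-L1 in both. POLA1, the catalytic subunit of polymerase alpha, was at 70.7 CPM in ASO-L1 and 131 CPM in SO-L1 low-MT cells (8083 and 7748 UMIs), a ratio of 0.539 (0.522 to 0.556), and at 138 and 175 CPM in high-MT cells. POLD3, an accessory subunit of polymerase delta, was at 16.01 CPM in ASO-L1 and 29.4 CPM in SO-L1 low-MT cells, a ratio of 0.544 (0.510 to 0.582). POLD1 and POLE, the catalytic subunits of polymerases delta and epsilon, had low-MT ratios of 0.755 and 0.795 and high-MT ratios of 0.683 and 0.885. POLE2, a small subunit of polymerase epsilon, was on the other side of 1, at 1.22 in low-MT cells. FEN1, the flap nuclease, had the highest ratio of the fork genes in low-MT cells, with 67.4 CPM in ASO-L1 and 41.2 CPM in SO-L1 (7706 and 2433 UMIs), a ratio of 1.64 (1.56 to 1.71), and differed little in high-MT cells, at 65.4 and 63.5 CPM. PCNA had the highest ratio of the fork genes in high-MT cells, with 98.9 CPM in ASO-L1 and 71.6 CPM in SO-L1, a ratio of 1.38 (1.35 to 1.41), and had a ratio of 1.15 in low-MT cells. The 4 small clamp loader subunits RFC2 to RFC5 ranged from 0.762 (RFC3) to 1.05 (RFC4) in low-MT cells. RPA1 and RPA2, which bind single strands, had low-MT ratios of 1.17 and 1.28, primase PRIM1 had 0.927 and the ligase LIG1 had 0.821. FEN1 was the fork gene counted as higher in low-MT cells, and POLA1 and POLD3 were those counted as lower.

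Among the nucleotide supply genes, DUT, which removes dUTP, was higher in ASO-L1 in both classes, at 122 CPM in ASO-L1 and 73.1 CPM in SO-L1 low-MT cells (13896 and 4318 UMIs) and at 230 and 157 CPM in high-MT cells, with ratios of 1.66 (1.61 to 1.72) and 1.47 (1.45 to 1.48). The subunits of ribonucleotide reductase differed in opposite directions in low-MT cells. RRM1, the large subunit, was at 31.6 CPM in ASO-L1 and 57.3 CPM in SO-L1 (3609 and 3384 UMIs), a ratio of 0.551 (0.526 to 0.578), and RRM2, the small subunit, was at 107 and 77.4 CPM, a ratio of 1.38 (1.33 to 1.42). In high-MT cells both were lower in ASO-L1, with ratios of 0.790 and 0.852. TK1, thymidine kinase, was at 36.8 CPM in ASO-L1 and 23.2 CPM in SO-L1 low-MT cells (ratio 1.59), and TYMS, thymidylate synthase, at 49.6 and 70.0 CPM (ratio 0.709). The pair of thymidylate enzymes thus differed in opposite directions there. TYMS overlaps ENOSF1 and TYMSOS on the other strand and RRM1 overlaps RRM1-AS1, with the same limit as for GINS2.

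Of the chromatin genes, SLBP, which binds the ends of histone messenger RNAs, was at 112 CPM in ASO-L1 and 53.6 CPM in SO-L1 low-MT cells (12765 and 3163 UMIs), a ratio of 2.09 (2.01 to 2.17), and at 88.0 and 69.9 CPM in high-MT cells. CHAF1A and CHAF1B, subunits of the chromatin assembly factor that follows PCNA, had ratios of 1.23 and 1.31 in low-MT cells and of 0.944 and 0.915 in high-MT cells. Of the repair genes, BRIP1, the helicase that partners BRCA1, was at 8.995 CPM in ASO-L1 and 46.0 CPM in SO-L1 low-MT cells (1028 and 2715 UMIs), a ratio of 0.196 (0.182 to 0.210). In high-MT cells it was at 19.0 and 46.4 CPM, a ratio of 0.409 (0.397 to 0.423), so it was the member with the lowest ratio in both classes. CLSPN, the checkpoint adaptor claspin, had ratios of 1.24 and 1.02, and EXO1, the mismatch repair exonuclease, had 1.79 (1.68 to 1.91) and 1.10.

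The overlap of barcodes bears on several of these values. Without the barcodes listed in both libraries, 1043 low-MT and 2733 high-MT ASO-L1 cells and 1680 and 3811 SO-L1 cells were left. The low-MT ratio was then 0.154 for GINS2, 4.66 for GINS3, 3.05 for ORC6 and 0.211 for BRIP1, and the high-MT ratio of BRIP1 was 0.226. These members kept their directions, and GINS2, GINS3 and ORC6 lay further from 1. Of the ring, MCM2 (0.941, with 1 inside its interval), MCM3 (0.879) and MCM5 (0.880) lay below 1 in low-MT cells without these barcodes, and so not all 6 subunits were then above it. DUT and TK1 were at 1.20 and 1.17, no longer past 1.5-fold. CDC6 (1.52) and GINS4 (1.56) were then past it. The count of members lower in ASO-L1 was then 8 in low-MT cells, where RFC2 (0.626), POLE (0.665) and TYMS (0.639) joined, and 5 in high-MT cells, where POLA1 (0.620), POLD1 (0.606) and POLD3 (0.660) did. Over all kept cells it was 6, with POLA1 (0.627), POLD1 (0.635), POLD3 (0.666) and RRM1 (0.654) added. With these barcodes kept in, 25.4% of all genes were lower in low-MT cells, 16.6% in high-MT cells and 18.8% over all kept cells. The shares of all genes without them are not given here, so the added members are not shown to exceed a background. The ASO-L1 cells left out were the deeper ones, with medians of 59006 UMIs against 16505 UMIs in those left in, in low-MT cells. What the shared barcodes are was not tested.

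The second comparison sets low-MT cells against high-MT cells within each library. In ASO-L1, 2 of 42 members were at least 1.5-fold higher in low-MT cells (29.1% of genes) and 7 were lower (12.8%), with a median log2 ratio of −0.19 beside 0.17 for all genes. In SO-L1 no member was higher (22% of genes) and 12 were lower (6.92%), with a median of −0.44 beside 0.11. The members counted as lower were thus a larger share of the set in SO-L1 than such genes are of all genes. In SO-L1 the low-MT cells had less of 41 of the 42 members, with TYMS the exception at 70.0 CPM in low-MT and 56.4 CPM in high-MT cells, a ratio of 1.24 (1.20 to 1.29). In ASO-L1, 29 of 42 members were lower in low-MT cells. The shares of all genes that were lower by any amount are not given here, so these direction counts have no background beside them.

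In SO-L1 the origin genes had a median log2 ratio of −0.56, the lowest of the roles. The chromatin genes (−0.51) and the nucleotide supply genes (−0.47) lay close to it. Of the origin genes, 8 of 16 were at least 1.5-fold lower, where 6.92% of all genes were: MCM2, MCM3, MCM4, MCM5, MCM6, MCM7, MCM10 and GINS2. With the MT- genes kept in the total, MCM3 (0.677) and the fork gene FEN1 (0.713) were among those short of 1.5-fold. MCM6 was at 36.3 CPM in low-MT and 84.8 CPM in high-MT SO-L1 cells, a ratio of 0.428 (0.409 to 0.448), the lowest of all members there. MCM5 was at 101 and 189 CPM, a ratio of 0.534 (0.519 to 0.549). In ASO-L1 the same subunits had ratios of 0.545 (MCM2), 0.756 (MCM3), 1.07 (MCM4), 0.760 (MCM5), 0.681 (MCM6) and 0.866 (MCM7), and the median log2 ratio of the origin genes was −0.10. The RNAs of these subunits therefore did not share 1 ratio in ASO-L1, where MCM4 was above 1 and MCM2 furthest below it. Without the barcodes in both lists the interval of MCM4 held 1. In SO-L1 the ratios of the subunits differed too, as those of MCM6 and MCM5 show. Protein of the complex was not measured. GINS2 was the lowest member in ASO-L1, at 15.1 CPM in low-MT and 54.7 CPM in high-MT cells, a ratio of 0.276 (0.263 to 0.290). In SO-L1 its ratio was 0.502 (0.484 to 0.520). GINS3 was the highest in ASO-L1, at 36.7 and 14.5 CPM, a ratio of 2.54 (2.44 to 2.64), and in SO-L1 it was at 10.97 and 11.7 CPM. ORC6 followed, at 145 and 93.2 CPM in ASO-L1, a ratio of 1.56 (1.53 to 1.59), and at 64.7 and 68.2 CPM in SO-L1.

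**Figure D3:**
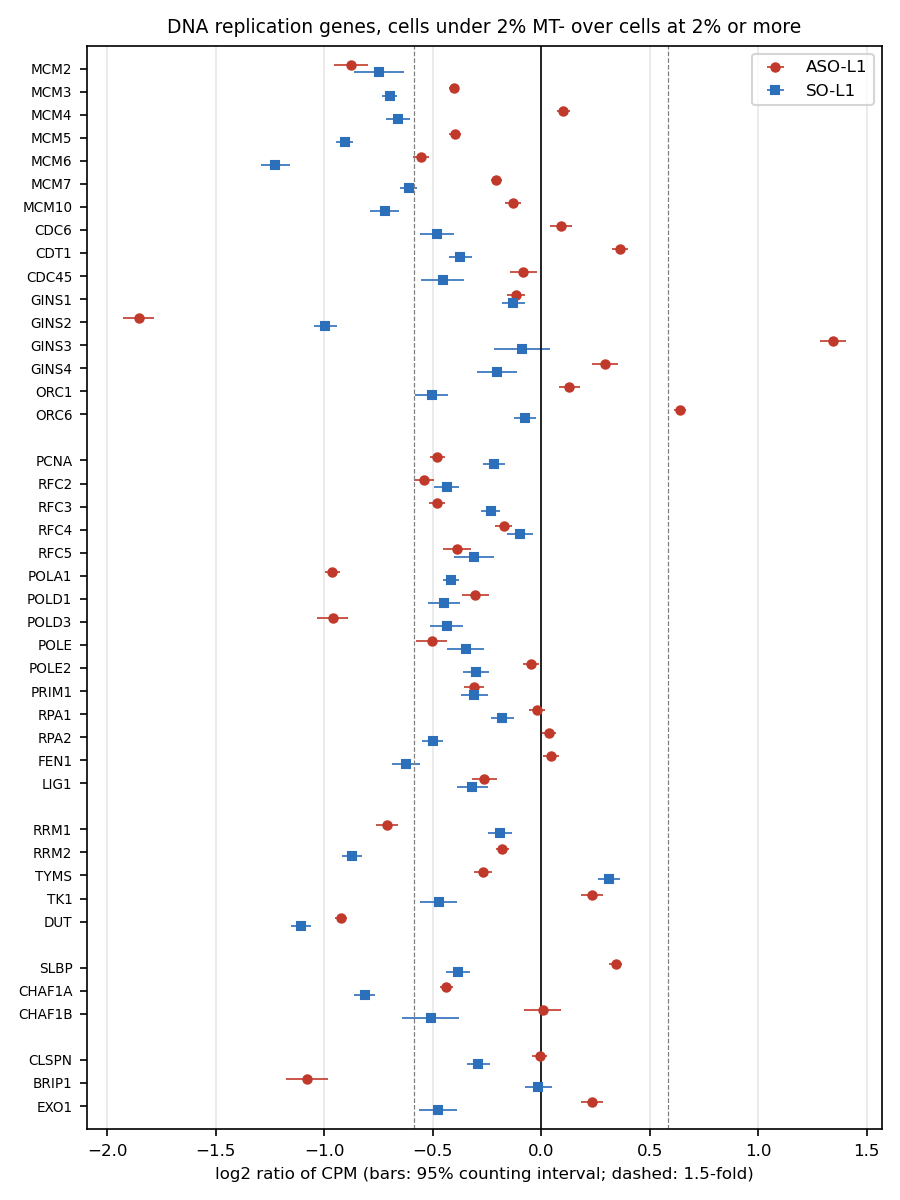
Log2 ratio of CPM in cells under 2% MT- over cells at 2% or more for each member, with circles for ASO-L1 and squares for SO-L1, 95% counting intervals as bars and dashed lines at 1.5-fold. ASO-L1 points run from −1.85 for GINS2 to 1.34 for GINS3, and SO-L1 points lie left of 0 except for TYMS (0.31).

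The median log2 ratio of the fork genes was alike in the libraries in this comparison, at −0.31 in ASO-L1 and −0.32 in SO-L1. Single fork genes differed between the libraries in both directions. POLA1 was at 70.7 CPM in low-MT and 138 CPM in high-MT ASO-L1 cells, a ratio of 0.513 (0.501 to 0.525), and at 131 and 175 CPM in SO-L1, a ratio of 0.750 (0.732 to 0.769). POLD3 had ratios of 0.514 and 0.740 in ASO-L1 and SO-L1. FEN1 differed more between the libraries: its ratio was 1.03 in ASO-L1 and 0.649 (0.621 to 0.678) in SO-L1. PCNA had ratios of 0.717 and 0.860. DUT had low ratios in both libraries, 0.528 (0.518 to 0.537) in ASO-L1 and 0.465 (0.450 to 0.480) in SO-L1, and was the member with the lowest ratio in SO-L1 after MCM6. RRM1 had ratios of 0.611 and 0.876, and RRM2 of 0.883 and 0.547. CHAF1A had ratios of 0.739 and 0.569, SLBP of 1.27 and 0.766, and EXO1 of 1.18 and 0.719. BRIP1 was at 8.995 and 19.0 CPM in ASO-L1, a ratio of 0.474 (0.443 to 0.506), and at 46.0 and 46.4 CPM in SO-L1. Without the barcodes in both lists the ASO-L1 ratio of BRIP1 was 0.915, because its high-MT level was then 10.4 CPM, so its difference between the classes rests on those cells. POLA1 was then at 0.679 in ASO-L1, short of 1.5-fold, and GINS3 at 3.82, while MCM3 (0.560), MCM5 (0.655), RFC2 (0.532), RFC5 (0.604) and POLE (0.648) were past 1.5-fold lower and EXO1 (1.51) higher.

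The third comparison takes the cells under 2% MT- that held a UMI of TPRX1 or ZSCAN4, genes known from the human embryo at genome activation, 529 in ASO-L1 and 95 in SO-L1. They are set against the other low-MT cells, 2002 and 1762. In ASO-L1, 1 of 42 members was higher in them (8.32% of genes) and 6 were lower (21.5%), with a median log2 ratio of −0.13 beside −0.16 for all genes. In SO-L1, 2 members were higher (10.8%) and none was lower (8.9%), with a median of −0.13 beside −0.02. As a set the members therefore differed little from all genes in these cells. GINS3 was higher in both libraries: 75.2 CPM in TPRX1 or ZSCAN4 cells and 23.9 CPM in the others in ASO-L1, a ratio of 3.15 (2.97 to 3.35), and 18.7 and 10.4 CPM in SO-L1, a ratio of 1.79 (1.39 to 2.29). CDC6 was at 44.1 and 36.3 CPM in ASO-L1 (ratio 1.21) and at 42.03 and 26.1 CPM in SO-L1, a ratio of 1.61 (1.36 to 1.89). GINS2 was at 6.11 and 18.1 CPM in ASO-L1, a ratio of 0.337 (0.287 to 0.394), and at 51.0 and 59.2 CPM in SO-L1. BRIP1 was at 3.88 and 10.7 CPM in ASO-L1, a ratio of 0.362 (0.295 to 0.441), and at 39.2 and 46.5 CPM in SO-L1. The other members counted as lower in ASO-L1 were POLA1 (0.576), POLD3 (0.531), LIG1 (0.661) and RRM1 (0.637). POLD3 was at 0.712 with each cell thinned to 8000 UMIs, and RRM1 at 0.700 to 0.823 under 5 alternatives, both then short of 1.5-fold. MCM3 had ratios of 1.05 in ASO-L1 and 0.880 in SO-L1, and MCM6 of 1.06 and 0.751.

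The same cells differed in other lists. The mitosis genes summed to 2149 CPM in TPRX1 or ZSCAN4 cells and 1434 CPM in the others in ASO-L1 and to 974 and 726 CPM in SO-L1, and the pluripotency genes to 1304 and 1938 CPM and to 2376 and 2822 CPM. They were also deeper, with medians of 52800 and 42697 UMIs in ASO-L1 and 37716 and 33209 UMIs in SO-L1, and a deeper cell is more likely to show a UMI of a scarce gene. The part of these lists and of depth in these ratios was not tested. Thinning evened out depth, but the cells kept the class given by their full counts. In ASO-L1 the ratio of GINS3 was 3.49 when each cell was thinned to 8000 UMIs and that of GINS2 was 0.449, and without the barcodes in both lists they were 3.69 and 0.589, with MCM2 (0.514) and RFC5 (0.588) then also lower. In cells with 2 or more TPRX1 and ZSCAN4 UMIs GINS2 stood at 0.138. In SO-L1 the ratio of GINS3 was 1.36 when each cell was thinned to 8000 UMIs, under 1.5-fold, and 2.30 when the 8000 UMIs were drawn outside the MT- genes, so it moved widely on 95 cells. Where the TPRX1 or ZSCAN4 UMI had to remain after thinning, GINS3 was at 3.51 and GINS2 at 0.214 in ASO-L1, and GINS3 at 2.48 in SO-L1. Among high-MT cells, GINS3 was at 32.4 CPM in the 442 ASO-L1 cells with a TPRX1 or ZSCAN4 UMI and at 12.9 CPM in the 6111 without, a ratio of 2.51 (2.34 to 2.70). In the 85 such SO-L1 cells it was at 9.82 CPM, against 11.7 CPM in the other 4611, a ratio of 0.839 (0.610 to 1.13). The GINS3 difference thus appeared in both MT- classes of ASO-L1 and in the low class of SO-L1. GINS2 in high-MT ASO-L1 cells was at 44.0 and 55.6 CPM, a ratio of 0.790, closer to 1 than in the low class.

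Levels in a group can hide how cells differ, so member UMIs were also counted per cell after thinning each cell to 8000 UMIs outside the MT- genes. Cells with fewer were left out, which kept 2235 of 2531 low-MT ASO-L1 cells and 1554 of 1857 low-MT SO-L1 cells, and 6320 of 6553 and 4345 of 4696 high-MT cells. The median cell held 19 member UMIs in low-MT ASO-L1 cells and 16 in low-MT SO-L1 cells, and 23 and 25 in high-MT cells. From the 10th to the 90th percentile the low-MT cells ran from 11 to 29 in ASO-L1 and from 8 to 27 in SO-L1, and the high-MT cells from 14 to 33 and from 16 to 34. The variance over the mean, which is 1 for counting error alone, was 2.87 in low-MT ASO-L1 cells and 3.51 in low-MT SO-L1 cells, and 2.35 and 1.96 in high-MT cells. By this measure low-MT SO-L1 cells were the most spread, and they also had the lowest median. Fewer than 10 member UMIs were found in 135 of 2235 low-MT ASO-L1 cells (6.04%, exact binomial 95% interval 5.09 to 7.11) and in 263 of 1554 low-MT SO-L1 cells (16.9%, 15.1 to 18.9). In high-MT cells the shares were 1.98% in ASO-L1 and 1.04% in SO-L1. The bound of 10 is a point in a range and not a class of cells: 196 of the low-MT ASO-L1 cells and 239 of the low-MT SO-L1 cells held 8 to 11. Without the barcodes in both lists the low-MT shares were 8.02% in ASO-L1 and 18.1% in SO-L1. The high-MT shares were then 3.52% in ASO-L1 and 1.12% in SO-L1.

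**Figure D4:**
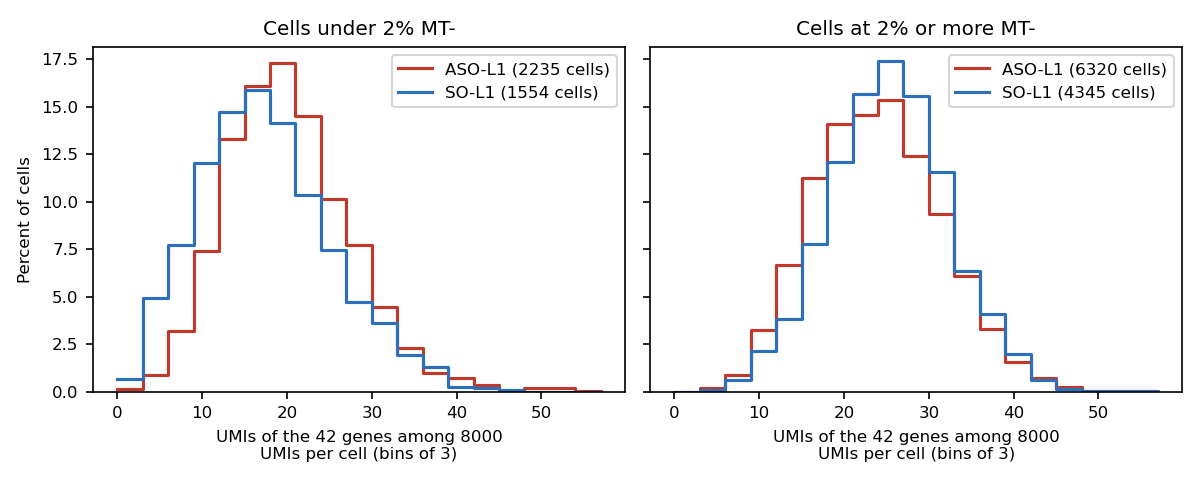
Share of cells by the number of member UMIs among 8000 UMIs outside the MT- genes, in bins of 3, in cells under 2% MT- (left) and at 2% or more (right). In the left panel the lines part at the low end, with 6.04% of ASO-L1 and 16.9% of SO-L1 cells under 10 UMIs; in the right panel the medians are 23 in ASO-L1 and 25 in SO-L1.

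Single members were seen in part of the cells when each cell was thinned to 8000 UMIs in all. GINS2 had a UMI in 9.93% of low-MT ASO-L1 cells (28.8% without thinning) and in 34.1% of low-MT SO-L1 cells (60.3%). In high-MT cells it was in 29.7% in ASO-L1 (69.8%) and 55.5% in SO-L1 (89.9%). GINS3 had a UMI in 21.8% of low-MT ASO-L1 cells (53.9%) and 8.94% of low-MT SO-L1 cells (24.4%), and in 39.96% of the low-MT ASO-L1 cells with TPRX1 or ZSCAN4. ORC6 was in 62.2% of low-MT ASO-L1 cells (86.7%) and 38.0% of low-MT SO-L1 cells (69.4%), and BRIP1 in 5.95% (18.7%) and 25.2% (53.9%). The orders were those of the CPM values. No cells known to lack replication genes were identified here. Barcodes under 1000 genes had the members at 2818 CPM in ASO-L1 and 2838 CPM in SO-L1, but they need not hold mostly free RNA. Of the 6045 such SO-L1 barcodes, 5040 were also listed in ASO-L1. In such ASO-L1 barcodes only 1453080 of 4351003 UMIs lay outside the MT- genes. Free RNA may add to all these shares, by an amount that was not measured.

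Members varied together from cell to cell, most in low-MT SO-L1 cells. With each cell thinned to 30000 UMIs outside the MT- genes, the correlation of a member with the sum of the other members had a median of 0.202 in low-MT ASO-L1 cells (n = 1744), 0.345 in low-MT SO-L1 cells (n = 1073), 0.231 in high-MT ASO-L1 cells (n = 5978) and 0.201 in high-MT SO-L1 cells (n = 3838). The cells of a group share a library and a depth, and the values are descriptions. In low-MT ASO-L1 cells the members most tied to the set were DUT (0.435), MCM5 (0.394), MCM7 (0.376) and CHAF1A (0.368), and GINS2 stood at 0.245. In low-MT SO-L1 cells they were GINS2 (0.586), DUT (0.571), MCM7 (0.566) and MCM3 (0.561). GINS3 was tied to the set in no group, at −0.025 in low-MT ASO-L1 cells, 0.035 in low-MT SO-L1 cells, and 0.050 and 0.045 in high-MT ASO-L1 and SO-L1 cells. ORC6 stood at 0.061 in low-MT ASO-L1 cells and 0.291 in low-MT SO-L1 cells, and BRIP1 at 0.087 and 0.368. At this depth GINS3, ORC6 and BRIP1 were among the 4 members least tied to the set in low-MT ASO-L1 cells, the other being POLD1 (0.081). With each cell thinned to 8000 UMIs in all (n = 2235), the 4 were GINS3 (−0.007), ORC6 (0.046), GINS4 (0.046) and LIG1 (0.052). BRIP1 stood at 0.059 there, so its place among the 4 depends on the depth used.

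Outside the members, the genes whose counts varied most like the member sum included several known from S phase. The list was led by NASP, a histone chaperone, in low-MT ASO-L1 cells (r = 0.352), low-MT SO-L1 cells (0.539) and high-MT SO-L1 cells (0.340), and by UNG, which removes uracil from DNA, in high-MT ASO-L1 cells (0.416). DTL, which marks CDT1 for destruction, WDR76, UHRF1, which copies methylation patterns to new DNA, and the regulator E2F1 were among the first 10 in several groups. In high-MT ASO-L1 cells the first 10 also held PTMA (0.404), FABP5 (0.365) and TOMM5 (0.348), which are not known as S phase genes. E2F1 itself had r of 0.293 in low-MT ASO-L1 and 0.451 in low-MT SO-L1 cells, CCNE1 (cyclin E) 0.174 and 0.370, and MKI67 0.049 and 0.076. CDKN1A, the inhibitor p21, ran against the members at −0.112 in low-MT ASO-L1 cells and −0.259 in low-MT SO-L1 cells. At the far end stood the translation genes EEF1A1 and RPS19 in 3 of the 4 groups, and the mitotic kinase PLK1 in high-MT cells (−0.393 in ASO-L1 and −0.310 in SO-L1). The 4 members that differed most between the libraries each had their own list in low-MT ASO-L1 cells. GINS3 varied most like PNP (0.573), HNRNPF (0.520) and C1QBP (0.480), with KHDC1L, a gene of the same embryonic stage as TPRX1, at 0.474. ORC6 varied most like TAF7 (0.581) and H3F3B (0.562), GINS2 like TERF1 (0.618), SERBP1 (0.589) and DNMT3B (0.563), and BRIP1 like genes that included SPIDR (0.546) and GPC6 (0.511). In low-MT SO-L1 cells GINS2 varied most like the members DUT (0.461), MCM5 (0.434) and MCM3 (0.420), and BRIP1 like DTL (0.313) and POLA1 (0.311).

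Cells were also ordered by the UMIs of 11 mitosis genes, such as CCNB1, CDC20 and PLK1, at 30000 UMIs per cell. In low-MT ASO-L1 cells the fork sum was highest at 11 to 20 mitosis UMIs, at 27.5 UMIs per cell, and was 18.6 above 80. The origin sum took another course there and went up in each step, with 24.3 at 4 to 10 and 35.0 above 80. Within the origin genes the members parted: GINS2 was at 0.988 UMIs per cell at 11 to 20 and 0.081 above 80, GINS3 at 0.581 and 2.20, and ORC6 at 2.87 and 6.14. In low-MT SO-L1 cells both sums were highest at 11 to 20, at 29.9 and 27.0, and 80 cells held at most 3 mitosis UMIs, with an origin sum of 11 and a fork sum of 12.85. At 41 to 80, GINS3 was at 0.373 and ORC6 at 2.17 in those SO-L1 cells. In high-MT cells of both libraries the origin sum was highest at 11 to 20, at 39.5 in ASO-L1 and 42.8 in SO-L1, beside 31.2 and 34.8 at 41 to 80. The fork sum had the same course there, with 31.6 and 33.3 at 11 to 20 and 25.7 and 27.6 at 41 to 80. The mitosis genes themselves differed between the groups, with a summed level of 1613 CPM in ASO-L1 and 742 CPM in SO-L1 low-MT cells and of 1291 and 1130 CPM in high-MT cells, so equal bins need not hold cells of equal phase. Within low-MT ASO-L1 cells they summed to 2149 CPM in TPRX1 or ZSCAN4 cells and 1434 CPM in the others. The order there need not be one of phase alone, and the parts of phase and cell state in these courses were not tested.

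**Figure D5:**
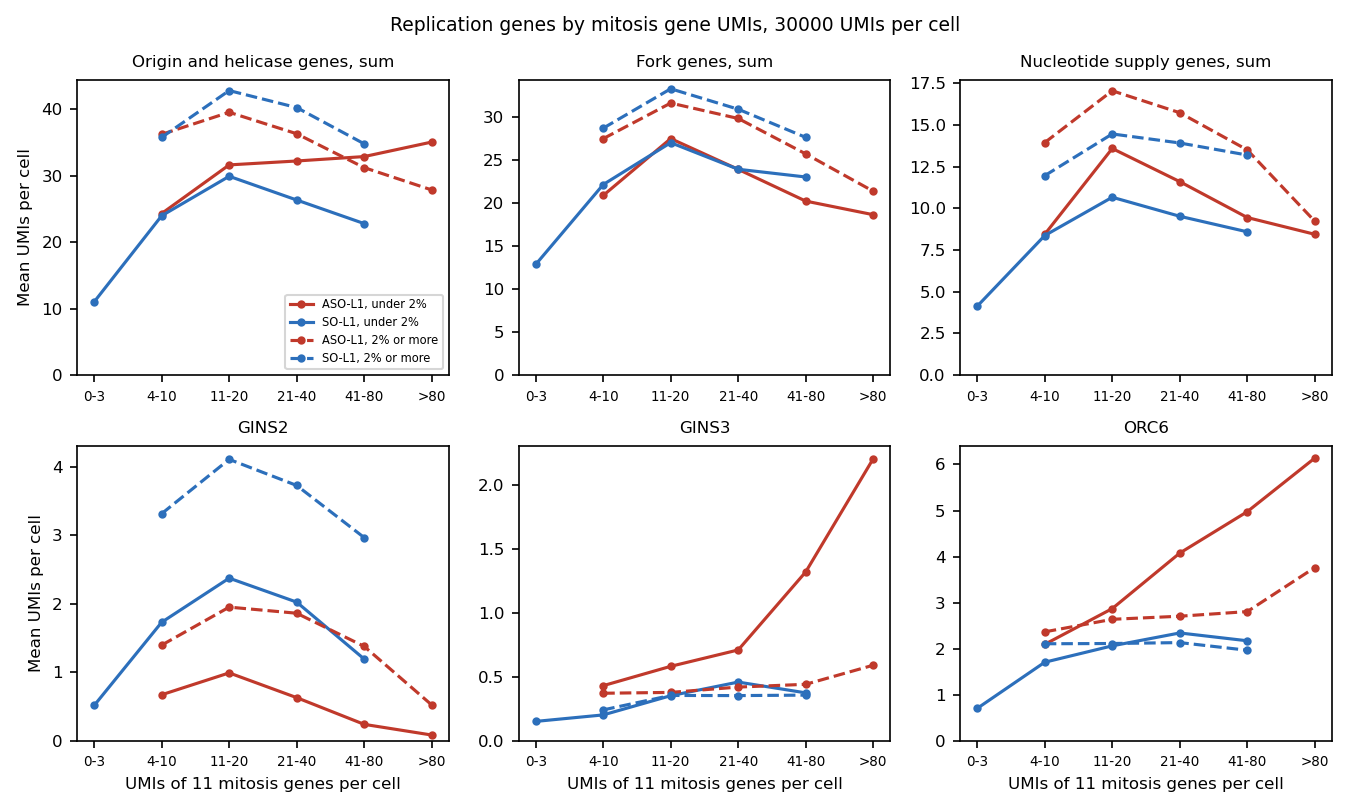
Mean UMIs per cell, at 30000 UMIs outside the MT- genes, of the origin, fork and nucleotide supply sums and of GINS2, GINS3 and ORC6, by the cell's UMIs of 11 mitosis genes; solid lines are cells under 2% MT- and dashed lines cells at 2% or more, in red for ASO-L1 and blue for SO-L1, and bins of under 20 cells are left out. GINS3 and ORC6 go up to 2.20 and 6.14 in low-MT ASO-L1 cells above 80 mitosis UMIs, while GINS2 goes down to 0.081.

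The cells with the most member UMIs held the least CDKN1A in both MT- classes. When low-MT ASO-L1 cells were put in 4 equal groups by the member sum, lowest first, CDKN1A averaged 3.25, 2.76, 2.90 and 2.19 UMIs per cell, and E2F1 0.509, 0.741, 0.977 and 1.31. In low-MT SO-L1 cells CDKN1A averaged 2.87, 2.40, 1.36 and 1.23 and E2F1 0.123, 0.343, 0.657 and 1.19. In high-MT cells CDKN1A averaged 0.890, 0.618, 0.552 and 0.470 in ASO-L1 and 0.236, 0.103, 0.104 and 0.094 in SO-L1. In the same order the mitosis UMIs per cell were 42.1, 53.4, 51 and 39.0 in low-MT ASO-L1 cells. They were 15.1, 27.1, 25.0 and 17.5 in low-MT SO-L1 cells, so in both they were higher in the middle groups than in the lowest and highest. In high-MT cells they fell from group to group, from 46.2 to 24.9 in ASO-L1 and from 39.2 to 23.5 in SO-L1. Over whole groups CDKN1A was at 99.1 CPM in ASO-L1 and 72.4 CPM in SO-L1 low-MT cells and at 24.0 and 6.00 CPM in high-MT cells, so it was 4.12-fold higher in low-MT cells of ASO-L1 and 12.1-fold higher in those of SO-L1. CCNE1 was at 37.2 CPM in ASO-L1 and 26.5 CPM in SO-L1 low-MT cells, CCNE2 at 3.88 and 1.61 CPM, E2F1 at 30.7 and 18.1 CPM and MKI67 at 39.95 and 28.5 CPM. All 5, the inhibitor CDKN1A among them, were higher in low-MT ASO-L1 cells. So were 14 of 16 origin genes, where the median log2 ratio of all genes was −0.01. Without the barcodes in both lists, MCM2 (0.941), MCM3 (0.879) and MCM5 (0.880) were also below 1.

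The remaining genes of the pathway, 86 in 6 lists, give the setting. In low-MT cells 18 of the 86 were higher in ASO-L1 (23.8% of all genes) and 14 were lower (25.4%), with a median log2 ratio of −0.04, so they did not share the members' median of 0.26. Of 14 other origin genes, 1 was higher, MCMBP, which binds MCM subunits, at 67.0 CPM in ASO-L1 and 31.0 CPM in SO-L1, and the lowest was the kinase CDC7 (0.717). Of 18 other fork genes, 3 were higher and 6 lower, from the fork protector TIPIN (2.65) to POLA2, the second subunit of polymerase alpha, at 12.4 CPM in ASO-L1 and 39.9 CPM in SO-L1 (0.310). POLA2 thus differed in the same direction as POLA1. Of 8 other nucleotide genes, deoxycytidine kinase DCK (2.55) was higher and SAMHD1, which breaks down nucleotides, was lower (0.357). Of 6 other chromatin genes, ASF1A (1.62) was higher, and NASP, with the most UMIs, had a ratio of 0.697. Of 14 other repair genes, 3 were higher and 3 lower, from UNG (1.70) to BARD1 (0.519). Of 26 regulators of the entry into S phase, 9 were higher and 4 lower, with CDK6 the lowest (0.339). The highest log2 ratio among these regulators was 1.79. Between low-MT and high-MT cells the 86 genes had medians of −0.24 in ASO-L1 and −0.28 in SO-L1, with 18 and 19 lower, where 12.8% and 6.92% of all genes were. The chromatin list was the lowest in both, at −0.84 and −0.72, with 4 of 6 genes lower in each.

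The length of a gene moved with the ASO-L1 over SO-L1 ratio, by a split chosen after the values were seen. The 5 members that span 100 kb or more (BRIP1, POLA1, POLD3, RFC3 and GINS3, by the GENCODE 29 gene spans) had a median log2 ratio of −0.88 in low-MT cells, beside −0.45 for 3357 other protein-coding genes of that length. The 16 members under 20 kb had 0.45, beside 0.19 for 5574 other genes. GINS2 (chr16:85676198-85690073), at 13876 bases, went against its class. The class of GINS3 (chr16:58295080-58406144) depends on the annotation, since RefSeq gives it 13677 bases. By RefSeq spans, an alternative added after the data were seen, 3 members (BRIP1, POLA1 and RFC3) spanned 100 kb or more, with a median of −0.89 beside −0.49 for other genes, and 15 were under 20 kb, GINS3 among them, with 0.49 beside 0.18. In high-MT cells the medians by GENCODE spans were −0.34 and 0.06, beside −0.23 and 0.02. The part of gene length in the members' ratios was not tested.

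Markers of other states also differed between these groups, and their part in the results above was not tested. The 8 pluripotency genes summed to 1779 CPM in ASO-L1 and 2793 CPM in SO-L1 low-MT cells and to 3435 and 3568 CPM in high-MT cells, and in low-MT cells 5 of 8 were lower in ASO-L1. The 10 genes of the embryonic genome activation stage summed to 822 and 191 CPM in low-MT cells and to 107 and 12.0 CPM in high-MT cells. The 8 mesendoderm genes summed to 148 and 17.4 CPM in low-MT cells, mostly from CER1 (121 and 8.23 CPM), with SOX17 at 0.184 and 0.017 CPM and TBXT at 0.131 and 0.135 CPM. The 9 trophectoderm or amnion genes summed to 615 and 324 CPM, mostly from KRT18 (600 and 316 CPM), with CDX2 at 0.14 and 0.017 CPM. The 5 fibroblast or feeder genes summed to 250 and 72.6 CPM, mostly from TAGLN (181 and 18.0 CPM), with LUM at 0.018 CPM in ASO-L1 and no UMI in SO-L1. The 4 neural genes summed to 4.54 and 9.21 CPM, and the 3 of them measured had log2 ratios from −3.10 to 2.46. The 8 naive genes summed to 334 and 260 CPM, with a median log2 ratio of 1.15, 4 higher and 1 lower in ASO-L1.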

How the data were processed

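Single-cell libraries of 1 ASO-L1 and 1 SO-L1 transfection were compared. The authors deposited raw UMI counts; per the submitters' processing notes they used Cell Ranger 7.1.0 and hg38. The annotation release, cell calling, strand use and treatment of intronic reads were not given in the sources used here. No doublet caller was run. The deposited lists held 11659 ASO-L1 and 13070 SO-L1 barcodes, and the kept cells 499106701 and 273349662 UMIs. Barcodes with under 1000 genes or an MT- share of 20% or more were left out, and cells were split at 2% MT-.

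CPM were computed here from summed counts, with MT- genes left out of the total. Ratios have exact 95% counting intervals. A gene was measured with at least 50 UMIs over both sets and called at 1.5-fold; a floor of 3 UMIs stood for a count of 0. With 1 library per group no test was run. Per-cell sums used cells thinned to 8000 UMIs outside the MT- genes, correlations 30000, or 8000 in all where said (shallower cells left out). Software was Python 3.11.15, numpy 2.4.6, scipy 1.17.1, pandas 2.3.3 and matplotlib 3.10.9, and the calculations were tested on simulated data. Gene spans are GENCODE 29 and promoters RefSeq GRCh38.p14. All members were to be given by role, and per comparison and role the highest, lowest and most counted member in full. The members and lists were chosen with earlier results of these data known. Alternatives were the cell filter, MT- genes kept in the total, cell means, thinning, leaving out the deepest 5% of cells or shared barcodes, median-of-ratios scaling, a minimum of 200 UMIs, a 2-fold call, MT- bounds of 1% and 3%, and other rules for TPRX1 or ZSCAN4 cells. Levels of the 19 members that overlap another gene on either strand (MCM2, MCM7, GINS2, GINS3, GINS4, RFC3, RFC4, RFC5, POLD3, PRIM1, RPA1, FEN1, LIG1, RRM1, TYMS, DUT, CHAF1A, CHAF1B and CLSPN) are uncertain for that reason, and those of PCNA, RFC3, RFC5, RPA2, FEN1, RRM2, TYMS and DUT because of pseudogenes.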

Additional observations from a re-analysis of the deposited data

Results flagged for a closer look

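Several members lay on opposite sides of 1 in groups under the same contrast, with both counting intervals clear of 1. The share of all genes that did so is not given here, so this is not shown to be a trait of the members. At these UMI counts ratios near 1 also clear their intervals, such as 0.968 for MCM3. With 1 library per group the differences were not tested. For ASO-L1 over SO-L1, the ratio in low-MT cells and then in high-MT cells was 1.51 and 0.972 for ORC1, 1.41 and 0.947 for CDC6, 1.36 and 0.959 for GINS4, 1.20 and 0.722 for CDT1, 1.19 and 0.968 for MCM3 and 1.14 and 0.862 for MCM7 among the origin genes. It was 1.38 and 0.852 for RRM2, 1.31 and 0.915 for CHAF1B, 1.28 and 0.884 for RPA2 and 1.23 and 0.944 for CHAF1A. TYMS lay the other way round, at 0.709 and 1.06. Without the barcodes listed in both libraries, MCM3 in low-MT cells was at 0.879 and CDT1 at 1.04 (0.969 to 1.11), so their places here rest on those barcodes.

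For low-MT over high-MT cells, the ratio in ASO-L1 and then in SO-L1 was 1.56 and 0.949 for ORC6, 1.29 and 0.772 for CDT1, 1.27 and 0.766 for SLBP, 1.23 and 0.868 for GINS4, 1.18 and 0.721 for TK1 and 1.18 and 0.719 for EXO1. It was 1.09 and 0.705 for ORC1, 1.07 and 0.633 for MCM4, 1.06 and 0.716 for CDC6, 1.03 and 0.649 for FEN1 and 1.02 and 0.707 for RPA2, with the ASO-L1 value near 1 in these. TYMS again lay the other way round, at 0.830 in ASO-L1 and 1.24 in SO-L1. Without the barcodes listed in both libraries, the ASO-L1 ratio was 0.941 (0.857 to 1.03) for TK1, 1.05 (0.998 to 1.10) for SLBP and 1.03 (0.980 to 1.08) for MCM4, so the places of these members also rest on those barcodes.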

How the results depend on the processing

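No paired analysis was possible because each oligonucleotide has 1 library. The median log2 ratio of the members stayed between 0.24 and 0.32 over 15 alternatives for ASO-L1 over SO-L1 in low-MT cells, between −0.15 and 0.00 in high-MT cells, between −0.27 and −0.08 for low-MT over high-MT cells in ASO-L1 and between −0.47 and −0.30 in SO-L1. Keeping MT- genes in the total gave that −0.30. For TPRX1 or ZSCAN4 cells in ASO-L1 the median was 0.037 under median-of-ratios scaling, the one alternative that turned its sign. Without barcodes in both libraries 6 members were lower in ASO-L1 over all cells, 8 in low-MT and 5 in high-MT cells. Median-of-ratios scaling gave 1 higher member in high-MT cells and 1 in low-MT over high-MT ASO-L1 cells. A 2-fold call gave 0 higher members over all cells, 3 higher and 2 lower in low-MT cells, 1 higher and 2 lower for low-MT over high-MT cells in ASO-L1, 2 lower in SO-L1, and 2 lower for TPRX1 or ZSCAN4 cells in ASO-L1. The comparison on 95 SO-L1 cells changed under many alternatives: its lower members numbered 1 with cell means, 2 thinned, 6 thinned outside MT- genes, 1 without shared barcodes, 4 when the UMI had to remain after thinning and 8 when 2 UMIs were asked for. Its higher members numbered 1 under either thinning, 5 at 2 UMIs and 0 at 2-fold, and its median was −0.25 at 2 UMIs and −0.26 when the UMI had to remain after thinning. Of 1257 values of members singled out by role under alternatives other than 2-fold, 34 crossed 1.5-fold, among them DUT over all cells (up to 1.54). The thinning outside MT- genes was chosen after the data were seen. The shares of all genes called under each alternative are not given here, so the counts of members under alternatives have no background beside them. The causes of these moves were not tested. The smallest member count was 33 UMIs (CHAF1B in the 95 SO-L1 cells), and smaller differences there were not detectable at this depth.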
